A study of Homo sapiens with 3 samples.

Results

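The genes described here are 53 genes of DNA replication and nucleotide supply in HCT116 cells after knockdown of SMARCA4. A gene was a member when its name stood on a written list and at least 1 non-control probe of the array carried that name. The rule itself uses no measured value, but the members were chosen with earlier results of these data known. All 53 listed names were found among the 43317 gene names on the array. They were grouped by role into 15 genes of origin licensing, 8 of origin firing, 20 of the replication fork, 5 of fork protection and chromatin assembly, and 5 of nucleotide supply. The 53 members had 70 probes, and all 70 were well above background on each of the 3 arrays, so the filter on dim probes removed no member.

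HCT116 is an established human colorectal cancer cell line, grown here in serum-containing medium and transfected with small interfering RNA (siRNA). Gene expression was measured on 3 arrays, 1 for NC and 1 for each of the knockdowns SMARCA4-KD1 and SMARCA4-KD2. KD1 and KD2 are knockdowns with siRNA against SMARCA4, and NC is the control, described in the study as a scrambled sequence. The comparison addresses which genes depend on SMARCA4 in these cells. All groups share the cell line, and the time between transfection and RNA extraction is not given in the labels. With 1 array per condition there were no replicates, so precision is limited by the small number of arrays. By the file headers both knockdown arrays lay on 1 slide and NC on another, so slide and knockdown cannot be told apart. The study used a pair of SMARCA4 siRNAs, and which of them was used for SMARCA4-KD1 was not given.

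SMARCA4 itself was read first, because the treatment field of the labels names PRMT1 while the titles and the siRNA protocol name SMARCA4. Signals are given relative to the 75th percentile of all non-control probes of the same array, so a relative signal of 1 equals that percentile. The relative signal of SMARCA4 was 62.9 in NC cells, 16.7 in SMARCA4-KD1 cells and 18.1 in SMARCA4-KD2 cells. Both knockdown arrays were far below NC, with log2 differences of -1.91 and -1.80. The relative signal of PRMT1 was 34.4 in NC cells, 41.4 in SMARCA4-KD1 cells and 44.5 in SMARCA4-KD2 cells, so PRMT1 was higher, not lower, on the knockdown arrays. SMARCA4 was thus the lower of the named targets on both knockdown arrays, as in the titles, and the treatment field was used only for the numbers 1 and 2 of the knockdowns. SMARCA2, the other ATPase of the same chromatin remodelling complexes, had a relative signal of 0.509 in NC cells, 0.186 in SMARCA4-KD1 cells and 0.259 in SMARCA4-KD2 cells.

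The labelled cell type was checked against 12 epithelial and colorectal marker genes, of which 8 passed the filter on dim probes. Those were EPCAM, KRT8, KRT18, KRT19, CDH1, CLDN3, CLDN4 and CLDN7, while CDH17, LGALS4, VIL1 and CEACAM5 did not pass. The median log2 difference of the 8 was -0.02 in SMARCA4-KD1 cells and 0.02 in SMARCA4-KD2 cells. That median covers markers on opposite sides of NC past 1.5-fold, CLDN4 with log2 differences of -0.67 and -0.68 and CLDN7 with 0.79 and 0.72, both named after their values were seen. Of 7 fibroblast markers 1 passed (COL1A1), and of 5 endothelial markers 2 passed (CDH5 and VWF). Among the leukocyte markers, PTPRC, CD14 and CD79A passed. CD79A had a relative signal of 10.2 in NC cells, 10.3 in SMARCA4-KD1 cells and 9.39 in SMARCA4-KD2 cells, so not every such marker was dim. CD79A and the endothelial markers VWF and CDH5 are described after their values were seen. VWF had a relative signal of 0.108 in NC cells, 0.118 in SMARCA4-KD1 cells and 0.228 in SMARCA4-KD2 cells. The signals of CDH5 were 0.166, 0.194 and 0.268 in the same order, so both markers were past 1.5-fold higher in SMARCA4-KD2. Whether such signals bear on the members was not tested. The 12 housekeeping genes had median log2 differences of 0.05 and 0.11, which ranged over the settings from -0.04 to 0.07 and from 0.01 to 0.15.

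Replication begins when the origin recognition complex, with CDC6 and CDT1, loads the MCM helicase onto DNA, a step called licensing. Kinases and loading factors later fire the licensed origins, and polymerases, the sliding clamp and the ligase copy both strands at the fork while nucleotide enzymes supply the building blocks. SMARCA4 (BRG1) is an ATPase of the SWI/SNF chromatin remodelling complexes, and many replication genes are known to be transcribed periodically in dividing cells under E2F factors.

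Most of the 53 members lay below NC on both knockdown arrays, by modest amounts. The members' median log2 difference from NC was -0.19 in SMARCA4-KD1 cells and -0.32 in SMARCA4-KD2 cells. The medians over all 22620 genes kept were 0.00 and 0.02. With the second probe the members' median in SMARCA4-KD1 was -0.092. Without the filter on dim probes the median of all genes was -0.15 in both comparisons. Of the members 39 (73.6%) were below NC in both knockdowns, against 39.3% of all genes kept (68.3% without the filter on dim probes, when genes dim on every array stand at the floor), 12 were above NC in both, and 2, CDC6 and MCM10, differed in sign. In RNA from a whole culture, fewer cells that express a gene and less RNA per cell cannot be told apart. Both comparisons share the single NC array, so their values are given side by side and lend each other no independent support.

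At the threshold of 1.5-fold, which the study's methods use, 7 members (13.2%) were lower than NC in SMARCA4-KD1, against 12.3% of all genes kept. That share stood differently to the background across the settings. It was slightly under it with no floor (13.2%, against 14.1%) and with the mean over probes (11.3%, against 11.9%). The same held with the second probe (11.3%, against 12.3%) and the series-level table (15.1%, against 15.8%). It was above it after quantile normalization, with 12 members (22.6%, against 12.8%). With a percentile over probes well above background 11 passed (20.8%, against 14%). It was also above it with normexp correction, the lowess trend or no filter on dim probes. In SMARCA4-KD2 there were 13 such members (24.5%), against 9.77% of all genes. Lower in both were 7 members (13.2%), against 8.05% of all genes, and these were MCM5, CDC45, FEN1, LIG1, TIMELESS, CHAF1A and TK1. At least 1.5-fold higher was 1 member, ORC5, in SMARCA4-KD1 (11.2% of all genes), 0 members in SMARCA4-KD2 (10.1% of all genes) and 0 in both (6.35% of all genes). The count of 7 members lower in both depended on the scaling, with 12 (against 8.59% of all genes) after quantile normalization and 11 (against 9.27%) with that other percentile. MCM5, LIG1, TIMELESS and TK1, 4 of the 7, were past the threshold in both knockdowns in all 11 settings of scaling, filter and probe choice that kept this threshold.

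**Figure D1:**
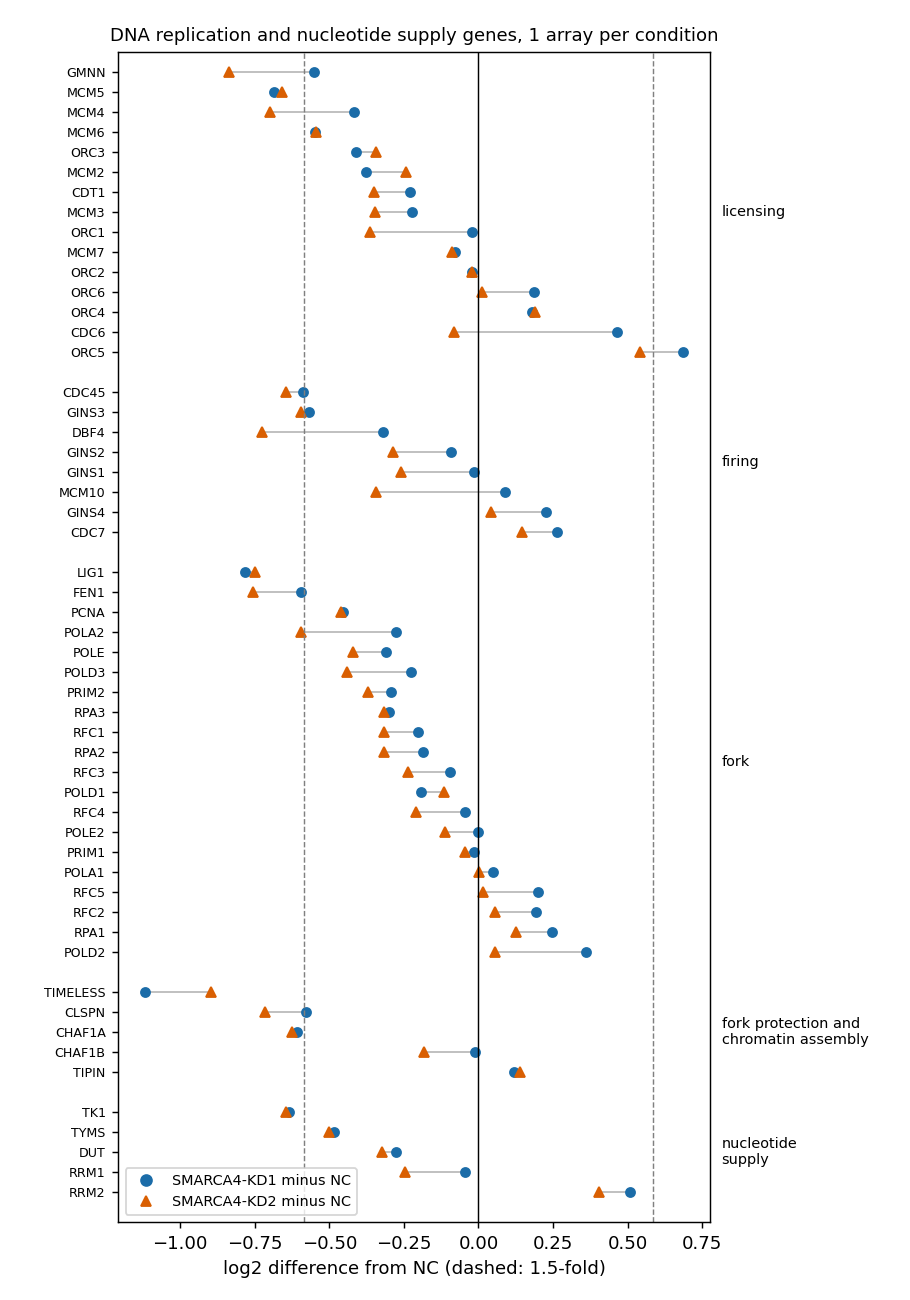
Log2 difference from NC of each of the 53 members, by role, with SMARCA4-KD1 as circles and SMARCA4-KD2 as triangles (1 array each). Most symbols lie left of the zero line, 7 members have both symbols left of the lower dashed line at 1.5-fold, and TIMELESS lies farthest left.

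Among the 15 licensing genes, 11 (73.3%) were below NC in both knockdowns and 3 (20%) above in both. Over all genes kept these shares were 39.3% and 41.1%, which also stand beside the counts of the other role groups. The licensing group's median log2 difference was -0.22 in SMARCA4-KD1 cells and -0.34 in SMARCA4-KD2 cells. The complexes of this step stood differently to NC, though the difference was not tested. All 6 genes of the MCM2 to MCM7 helicase ring were below NC in both knockdowns and in all 11 settings, with medians of -0.40 and -0.44. MCM7, the brightest of these, was only slightly below, with log2 differences of -0.08 and -0.09. Of the 6 genes of the origin recognition complex, which marks the origins, 3 (50%) were below NC and 3 above, nearer the shares of all genes kept. That division moved with the setting, with 2 or 3 below and 2 to 4 above.

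MCM5, a subunit of the helicase ring, had a relative signal of 20.3 in NC cells, 12.6 in SMARCA4-KD1 cells and 12.8 in SMARCA4-KD2 cells. Both knockdown arrays were close to each other and under NC, 1.61-fold and 1.58-fold lower, with log2 differences of -0.69 and -0.66. Its probe lies at chr22:35819307-35820178 (hg19, plus strand). GMNN, which encodes geminin, the inhibitor of CDT1, had the lowest mean log2 difference of the licensing genes. On the arrays the relative signal of GMNN was 38.4 in NC cells, 26.2 in SMARCA4-KD1 cells and 21.5 in SMARCA4-KD2 cells. NC was the highest of the arrays, and the log2 differences were -0.55 and -0.83, so only SMARCA4-KD2 was past 1.5-fold. In 4 of the 10 other settings, which include quantile normalization and normexp correction, GMNN was past it in both. ORC5, a subunit of the origin recognition complex, stood at the other end of the group. Its relative signal was 11.7 in NC cells, 18.8 in SMARCA4-KD1 cells and 17.0 in SMARCA4-KD2 cells. Both knockdown arrays were above NC, with log2 differences of 0.69 and 0.54.

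Of the 8 firing genes, 5 were below NC in both knockdowns and 2 above in both. The median log2 difference was -0.05 in SMARCA4-KD1 cells and -0.31 in SMARCA4-KD2 cells. All 8 genes were lower in SMARCA4-KD2 than in SMARCA4-KD1, against 46.7% of all genes kept. The gaps between the knockdowns were small, with a median of -0.19 on the log2 scale. CDC45 joins the MCM ring and the GINS complex to form the active helicase. The relative signal of CDC45 was 27.8 in NC cells, 18.5 in SMARCA4-KD1 cells and 17.7 in SMARCA4-KD2 cells. Both knockdowns were under NC, with log2 differences of -0.59 and -0.65. In SMARCA4-KD1 this is just inside the threshold, which is 0.58 on the log2 scale, and with normexp background correction CDC45 was not past it in both knockdowns. GINS3, 1 of the 4 GINS subunits, was just outside the threshold in SMARCA4-KD1, with log2 differences of -0.57 and -0.60. CDC7, the kinase that fires licensed origins with its partner DBF4, had the highest mean difference of this group. Its relative signal was 8.17 in NC cells, 9.81 in SMARCA4-KD1 cells and 9.05 in SMARCA4-KD2 cells, so NC was the lowest of the arrays. DBF4 itself was on the other side of NC, with log2 differences of -0.32 and -0.72, but by its second probe these were 0.23 and -0.31. The second probe was far dimmer, at 0.142 in NC cells against 8.77 by the brightest.

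The 20 fork genes had a median log2 difference of -0.19 in SMARCA4-KD1 cells and -0.28 in SMARCA4-KD2 cells, with 15 below NC in both knockdowns and 5 above in both. The lowest were the enzymes that finish the lagging strand. LIG1, the ligase that seals its fragments, had a relative signal of 18.9 in NC cells, 11.0 in SMARCA4-KD1 cells and 11.2 in SMARCA4-KD2 cells. Both knockdown arrays were nearly level and well under NC, 1.72-fold and 1.68-fold lower, with log2 differences of -0.78 and -0.75. Its probe lies at chr19:48618822-48618881 (hg19, minus strand). FEN1, the nuclease that removes the flaps before ligation, had a relative signal of 9.71 in NC cells, 6.44 in SMARCA4-KD1 cells and 5.75 in SMARCA4-KD2 cells. NC was again the highest, and the log2 differences were -0.59 and -0.76. With normexp background correction FEN1 was not past 1.5-fold in both knockdowns.

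The sliding clamp PCNA, which holds the polymerases and both of these enzymes on DNA, was below NC with log2 differences of -0.45 and -0.46. Its loader, replication factor C, had 3 of 5 subunits below NC and 2 above, RFC2 and RFC5. After quantile normalization RFC2 and RFC5 differed in sign between the knockdowns, and with normexp correction RFC4 did. RPA2 and RPA3, subunits of the complex that coats single-stranded DNA, were below NC in both knockdowns, and RPA1 was above in both. Polymerase alpha and primase, which start each fragment, had 3 of 4 genes below NC (2 to 4 across the settings). Their medians were -0.14 and -0.21, which ranged over the settings from -0.20 to -0.06 and from -0.28 to -0.11. The 5 genes of polymerases delta and epsilon, which extend the strands, had medians of -0.19 and -0.12, with 4 below NC in both. With the second probe 3 were below, and the median in SMARCA4-KD1 was -0.002, against -0.07 with the mean over probes. The gene above NC in both was POLD2, an accessory subunit of polymerase delta. By the brightest probes POLD2 was the fork gene with the highest mean difference, while RPA1 was higher by its second probe, at 1.16 and 0.70. That RPA1 probe was far dimmer, with a relative signal of 0.462 in NC cells against 68.7 by the brightest. The signal of POLD2 relative to the percentile was 4.95 in NC cells, 6.36 in SMARCA4-KD1 cells and 5.15 in SMARCA4-KD2 cells. Only SMARCA4-KD1 stood apart from NC, with a log2 difference of 0.36 against 0.06 in SMARCA4-KD2.

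The 5 genes of fork protection and chromatin assembly had the lowest median of the role groups, -0.58 in SMARCA4-KD1 cells and -0.63 in SMARCA4-KD2 cells. With the second probe nucleotide supply was lower in SMARCA4-KD1, at -0.48 against -0.43. TIMELESS, which stabilises the fork together with TIPIN, was the lowest of all 53 members. Its relative signal was 42.2 in NC cells, 19.4 in SMARCA4-KD1 cells and 22.6 in SMARCA4-KD2 cells. NC was far above both knockdowns, which were 2.17-fold and 1.86-fold lower, with log2 differences of -1.12 and -0.90. The probe lies at chr12:56810945-56811004 (hg19, minus strand). Its partner TIPIN was not lower. The relative signal of TIPIN was 16.0 in NC cells, 17.4 in SMARCA4-KD1 cells and 17.7 in SMARCA4-KD2 cells, with both knockdowns slightly above NC and log2 differences of 0.12 and 0.14.

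CHAF1A is the large subunit of chromatin assembly factor 1, which deposits histones behind the fork. Its relative signal was 24.9 in NC cells, 16.4 in SMARCA4-KD1 cells and 16.2 in SMARCA4-KD2 cells. Both knockdowns were under NC, 1.52-fold and 1.54-fold lower, with log2 differences of -0.61 and -0.63. By its second probe, or by the mean over its probes, CHAF1A was not past 1.5-fold in both. The partner subunit CHAF1B had log2 differences of -0.01 and -0.18. CLSPN, which encodes the checkpoint mediator claspin, was just outside the threshold in SMARCA4-KD1, with log2 differences of -0.58 and -0.72.

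Of the 5 nucleotide supply genes, 4 were below NC in both knockdowns and 1 above, and the medians were -0.27 and -0.32. TK1, the thymidine kinase of the salvage pathway, had a relative signal of 546 in NC cells, 351 in SMARCA4-KD1 cells and 349 in SMARCA4-KD2 cells. The knockdown arrays were level with each other and under NC, 1.55-fold and 1.56-fold lower, with a log2 difference of -0.64 in each. Its probe lies at chr17:76170193-76170252 (hg19, minus strand). TYMS, which makes thymidylate by the other route, had log2 differences of -0.48 and -0.50. DUT, which removes dUTP, had log2 differences of -0.27 and -0.32. The subunits of ribonucleotide reductase, which makes deoxyribonucleotides, lay on opposite sides of NC. RRM1 had log2 differences of -0.04 and -0.24. The relative signal of RRM2 was 15.2 in NC cells, 21.7 in SMARCA4-KD1 cells and 20.2 in SMARCA4-KD2 cells. Both knockdown arrays were above NC, with log2 differences of 0.51 and 0.41, the highest of the group.

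**Figure D2:**
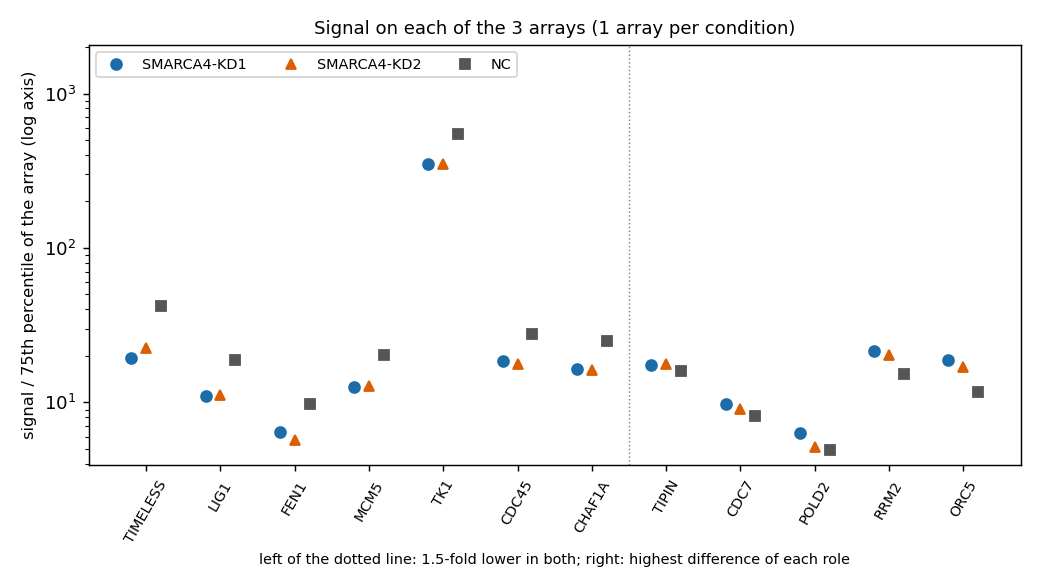
Relative signal (log axis) on each array for the 7 members at least 1.5-fold lower in both knockdowns, left of the dotted line, and for the member with the highest mean difference of each role, right of it. On the left NC is the highest symbol for each gene, and on the right NC is the lowest.

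Set side by side, the role groups overlapped. Each group had a median below 0 in both comparisons, except that firing was at 0.04 in SMARCA4-KD1 cells when the second probe was used, and each held at least 1 member above NC in both knockdowns. Licensing and nucleotide supply had similar medians of the mean of both differences, -0.28 and -0.30, and the fork genes had -0.21. Firing had -0.16, and fork protection and chromatin assembly had -0.62, though that group has only 5 genes. The differences between the groups were not tested. Under none of the other scalings did the median of all genes kept lie more than 0.1 from 0 on the log2 scale, though without the filter on dim probes it was -0.15 in both comparisons.

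**Figure D3:**
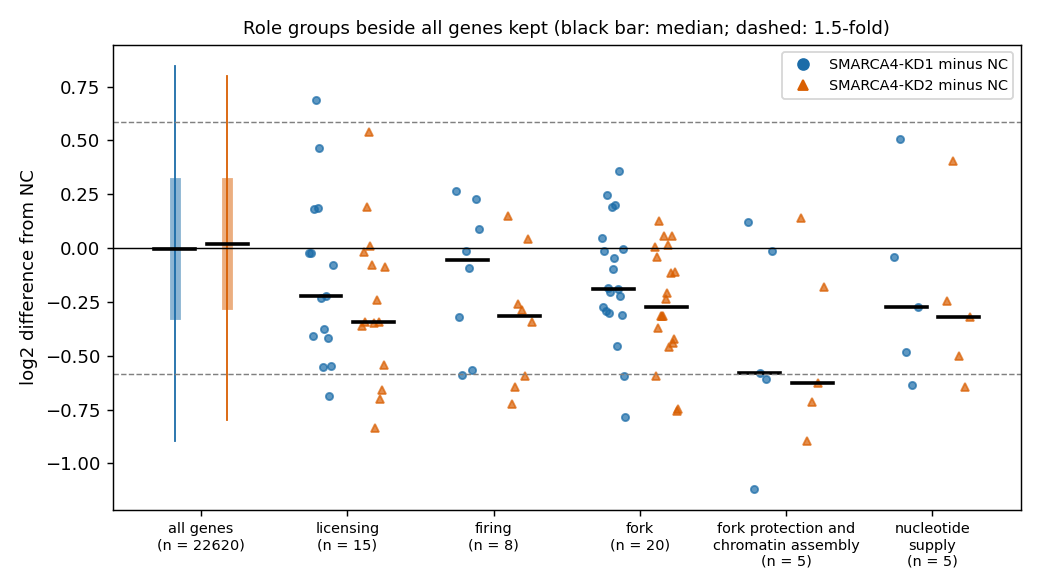
Log2 difference from NC by role group, each symbol 1 member and each black bar a median, with circles for SMARCA4-KD1 and triangles for SMARCA4-KD2. For all 22620 genes kept the thick bar spans the middle 50% and the thin line the middle 90%, and the 5 role groups have their medians below the 2 medians of all genes.

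The knockdowns also differed from each other in a way that most members shared. SMARCA4-KD2 was below SMARCA4-KD1 for 43 of 53 members (81.1%), against 46.7% of all genes kept. Without the filter on dim probes the share of all genes was 72.0%. That share is mostly set by the floor, at which genes dim on every array then stand. The medians of all genes were then -0.1505 in SMARCA4-KD1 cells and -0.1527 in SMARCA4-KD2 cells. Among the members the sizes were small, with a median difference of -0.12 on the log2 scale. At least 1.5-fold apart between the knockdowns were 0 members, against 6.6% of all genes kept. CDC6, which loads the MCM ring, was the member farthest apart, with a relative signal of 0.434 in NC cells, 0.600 in SMARCA4-KD1 cells and 0.411 in SMARCA4-KD2 cells. CDC6 and the genes MCM7, MCM10, GINS3, DBF4, PCNA, the RPA and RFC subunits, CHAF1B, CLSPN, TYMS, DUT and RRM1 were named after their values were seen.

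The precision of a single difference can be read from the array itself. The extraction software gives an error for each spot, which for the members comes to a median of 0.20 on the log2 scale for a difference between arrays. The repeated spots of ORC6, GINS2, PRIM1 and CHAF1B had standard deviations of 0.01 to 0.04 on the log2 scale within an array. Neither number covers the spread between cultures.

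Of the 53 members, 38 had 1 probe, 14 had 2 and PRIM2 had 4. For 13 of these 15 members with several probes, all probes lay on the same side of NC by the mean of both differences. The exceptions were POLE and ORC2, and 0 members had probes past 1.5-fold in opposite directions. The median gap between a further probe and the brightest was 0.12 on the log2 scale. MCM5 had log2 differences of -0.70 and -0.62 by its second probe, close to those by its brightest. The second probes of ORC4 and RPA1 stood well above NC, at 0.81 and 0.83 for ORC4 and at 1.16 and 0.70 for RPA1. By the brightest probes the same genes had 0.18 and 0.19 for ORC4 and 0.25 and 0.13 for RPA1. In NC cells these second probes were dim, at 0.637 for ORC4 and 0.462 for RPA1, against 9.87 and 68.7 by the brightest. ORC2, ORC4, POLE and RPA1 were named after their values were seen, and whether their probes read different transcripts was not tested.

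**Figure D4:**
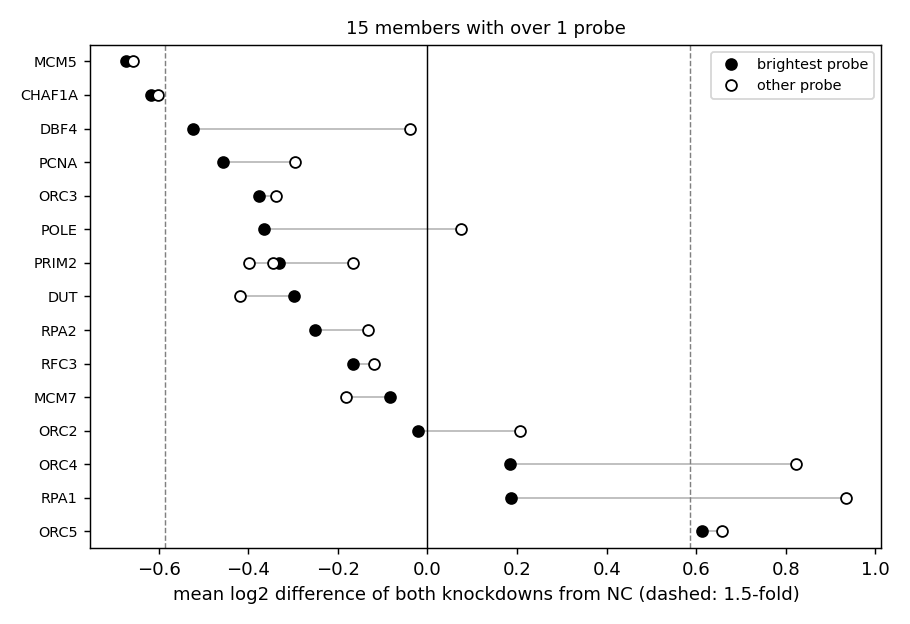
Mean log2 difference of both knockdowns from NC for the 15 members with several probes, the brightest probe as a filled circle and further probes as open circles. MCM5 and CHAF1A have their probes close together left of the dashed line at 1.5-fold, and ORC4 and RPA1 have 1 open circle each far to the right.

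Many members share promoter letters, which the choice of members did not use. RefSeq promoters (GRCh38.p14) of 250 bases before and 50 after a gene's start were matched by symbol for 47 of the 53 members, with 63 promoters. The E2F letters searched were TTTCCCGC, TTTCGCGC, TTTGCCGC and TTTGGCGC, on both strands. They were found in 23 of 63 member promoters (36.5%), against 3.31% of all 35116 promoters of the table. CCAAT, the letters of the NF-Y box, was found in 52.4% of member promoters and 34.6% of all. TTTGAA, the letters of the CHR element, was found in 4.76% of member promoters and 15.2% of all. The 23 members with E2F letters had median log2 differences of -0.27 and -0.34, and the 24 without had -0.02 and -0.20. For CCAAT the division ran otherwise in SMARCA4-KD1, as the 28 members with it had -0.06 and -0.30 and the 19 without had -0.23 and -0.24. Of the 7 members lower in both knockdowns, 6 were matched, and LIG1 alone among these held the exact E2F letters searched. Across the settings, 1 to 6 of the members past 1.5-fold in both held them, with 6 after quantile normalization. Such a match is a description of letters, and binding was not measured here. Only the exact letters were searched, so a promoter without them may still hold another form of an E2F site.

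The promoters below are of LIG1, TIMELESS, CHAF1A and TK1, which were lower than NC in both knockdowns, of GMNN, the lowest licensing gene, and of TIPIN and RRM2, which were higher in both. Where the table holds several promoters of a gene, one with a match is shown. They show that the same letters stood before genes on either side of NC. Capitals mark the E2F letters and CCAAT on either strand, CCAAT reading ATTGG on the other, and matches that overlap share one run of capitals. GMNN (chr6:24775163-24775462, plus strand) has 1 E2F match and 2 of CCAAT. LIG1 (chr19:48170295-48170594, minus strand) has 1 E2F match, which begins 114 bases before the start. TIMELESS (chr12:56449377-56449676, minus strand) has 1 CCAAT, which begins 53 bases before the start. TIPIN (chr15:66356636-66356935, minus strand) has 2 overlapping E2F matches. CHAF1A (chr19:4402390-4402689, plus strand) has 4 of CCAAT, 2 of them overlapping. TK1 (chr17:78187003-78187302, minus strand) has 2 of CCAAT, and RRM2 (chr2:10122489-10122788, plus strand) has 3.
GMNN: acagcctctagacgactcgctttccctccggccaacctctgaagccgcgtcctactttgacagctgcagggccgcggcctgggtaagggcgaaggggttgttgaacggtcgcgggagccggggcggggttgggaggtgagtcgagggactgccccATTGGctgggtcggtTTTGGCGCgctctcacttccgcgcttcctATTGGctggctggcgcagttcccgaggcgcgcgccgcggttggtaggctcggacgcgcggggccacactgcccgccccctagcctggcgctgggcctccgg
LIG1: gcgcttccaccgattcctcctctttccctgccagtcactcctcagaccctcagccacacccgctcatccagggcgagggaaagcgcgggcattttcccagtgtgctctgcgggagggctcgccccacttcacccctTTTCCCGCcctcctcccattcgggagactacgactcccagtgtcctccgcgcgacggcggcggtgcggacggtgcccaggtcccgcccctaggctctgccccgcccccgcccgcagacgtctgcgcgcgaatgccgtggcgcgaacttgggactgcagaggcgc
TIMELESS: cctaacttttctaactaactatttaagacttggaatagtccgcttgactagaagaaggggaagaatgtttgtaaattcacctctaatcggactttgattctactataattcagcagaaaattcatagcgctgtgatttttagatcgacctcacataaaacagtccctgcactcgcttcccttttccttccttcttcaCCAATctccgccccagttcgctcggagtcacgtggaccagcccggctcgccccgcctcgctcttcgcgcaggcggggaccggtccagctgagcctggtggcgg
TIPIN: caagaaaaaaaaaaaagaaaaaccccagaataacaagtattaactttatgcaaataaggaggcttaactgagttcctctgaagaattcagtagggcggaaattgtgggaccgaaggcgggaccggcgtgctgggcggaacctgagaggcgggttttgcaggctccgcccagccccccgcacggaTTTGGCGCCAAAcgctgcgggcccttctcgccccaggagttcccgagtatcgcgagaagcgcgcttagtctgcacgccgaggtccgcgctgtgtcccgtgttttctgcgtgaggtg
CHAF1A: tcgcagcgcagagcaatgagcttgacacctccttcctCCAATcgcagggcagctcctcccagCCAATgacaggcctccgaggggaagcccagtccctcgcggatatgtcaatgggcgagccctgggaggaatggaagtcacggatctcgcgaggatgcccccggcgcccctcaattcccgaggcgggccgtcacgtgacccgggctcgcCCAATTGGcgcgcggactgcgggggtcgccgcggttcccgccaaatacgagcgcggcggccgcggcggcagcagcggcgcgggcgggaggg
TK1: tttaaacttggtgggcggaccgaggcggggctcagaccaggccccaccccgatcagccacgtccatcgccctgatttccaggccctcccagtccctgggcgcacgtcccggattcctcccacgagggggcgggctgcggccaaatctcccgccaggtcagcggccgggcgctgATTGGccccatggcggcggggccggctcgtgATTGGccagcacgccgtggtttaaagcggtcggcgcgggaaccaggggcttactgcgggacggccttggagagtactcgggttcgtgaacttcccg
RRM2: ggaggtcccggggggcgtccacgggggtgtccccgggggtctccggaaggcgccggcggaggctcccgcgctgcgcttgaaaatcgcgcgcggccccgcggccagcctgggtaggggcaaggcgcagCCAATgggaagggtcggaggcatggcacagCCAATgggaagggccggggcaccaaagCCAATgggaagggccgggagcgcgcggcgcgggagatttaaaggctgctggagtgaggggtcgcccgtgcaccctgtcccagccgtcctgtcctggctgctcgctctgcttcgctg

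A wider list held 34 further replication genes, all kept. Its median log2 difference was -0.23 in SMARCA4-KD1 cells and -0.16 in SMARCA4-KD2 cells. Below NC in both knockdowns were 19 genes (55.9%), against 39.3% of all genes kept. Without the filter on dim probes, when genes dim on every array stand at the floor, it was 68.3% of all genes. Above NC in both were 11 (32.4%), against 41.1% of all genes kept. The list was not tested against the members or other genes. At least 1.5-fold lower in both were 5 genes (14.7%, against 8.05% of all genes kept), POLE4, DBF4B, DSCC1, TOP2A and PIF1. The helicase gene PIF1 was the lowest, with log2 differences of -1.82 and -1.56. POLE4, a small subunit of polymerase epsilon, had log2 differences of -1.42 and -1.13. DBF4B, a further activator of CDC7, had -1.31 and -0.98. DSCC1, a subunit of an alternative clamp loader, had log2 differences of -0.90 and -0.83, and the topoisomerase gene TOP2A had -0.71 and -0.70. At least 1.5-fold higher in both were 2 genes (5.88%, against 6.35% of all genes), ASF1A, a histone chaperone gene, with 0.83 and 0.71, and CTC1, of the telomere-linked CST complex, with 1.23 and 1.20. With normexp correction DBF4B and ASF1A were not past the threshold in both. MCMBP, whose product binds MCM proteins, stood apart between the knockdowns, with a relative signal of 52.6 in NC cells, 16.0 in SMARCA4-KD1 cells and 47.1 in SMARCA4-KD2 cells. MCMBP was named after its values were seen.

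The 35 further nucleotide genes, all kept, lay mostly on the other side of NC. Their median log2 difference was 0.17 in SMARCA4-KD1 cells and 0.12 in SMARCA4-KD2 cells, with 24 genes (68.6%, against 41.1% of all genes kept) above NC in both knockdowns and 9 (25.7%, against 39.3%) below in both. Across the settings 19 to 25 were above. At least 1.5-fold higher in both were 3 genes (8.57%, against 6.35% of all genes), which are PFAS, an enzyme of purine synthesis, with 0.97 and 0.83, IMPDH1 with 0.69 and 0.60, and IMPDH2 with 0.59 and 0.61, which encode enzymes on the way to GTP. After quantile normalization, after the lowess trend was taken out, or with a percentile over probes well above background, only PFAS among them was past the threshold in both. With normexp correction or the series-level values, PFAS and IMPDH1 were past it and IMPDH2 was not. At least 1.5-fold lower in both were 2 genes (5.71%, against 8.05% of all genes), which are ADSL, also of purine synthesis, with -1.11 and -1.19, and PRPS1, which makes the ribose phosphate donor, with -0.70 and -0.59. By the mean of a gene's probes or with normexp correction, only ADSL among these was past the threshold in both.

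**Figure D5:**
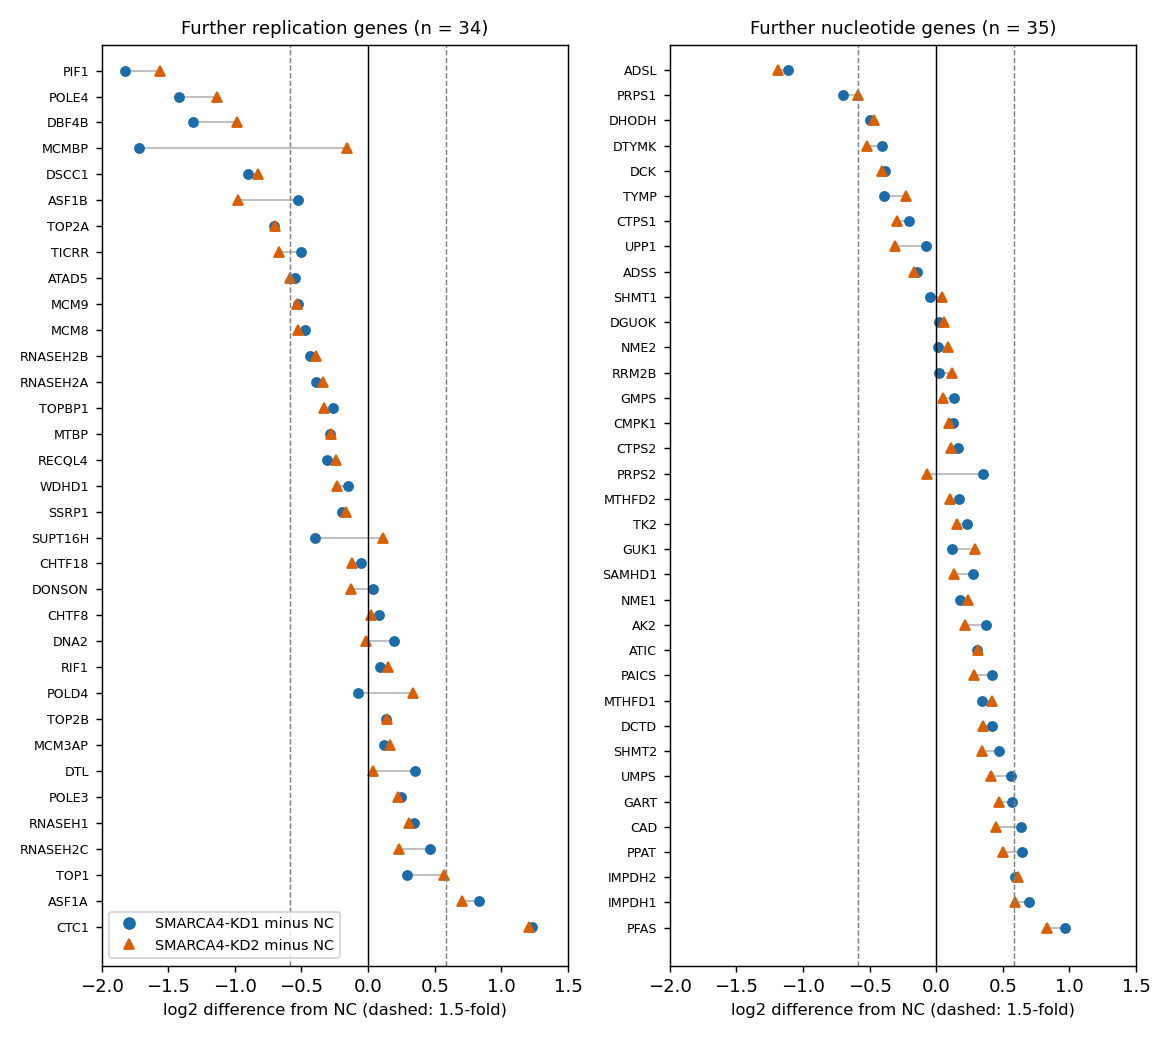
Log2 difference from NC of the 34 further replication genes (left) and the 35 further nucleotide genes (right), with circles for SMARCA4-KD1 and triangles for SMARCA4-KD2. PIF1 and ADSL are lowest, CTC1 and PFAS highest, and MCMBP has its symbols farthest apart.

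Both knockdowns together were compared with NC by limma, with 1 residual degree of freedom and p-values adjusted over all 22620 genes. At an adjusted p under 0.05 it called 0 members and 0 of all genes (0%), and the smallest adjusted p was 0.107. At an unadjusted p under 0.05 there were 18 members lower than NC, against 14.5% of all genes, and 2 higher, against 15.9% of all genes. By role the 18 lower were 5 licensing, 2 firing, 5 fork, 3 fork protection and chromatin assembly, and 3 nucleotide supply genes. The fitted log2 difference and standard error were -0.77 and 0.0671 for LIG1, and -1.01 and 0.131 for TIMELESS. The count of 0 depended on the setting, since 14 to 21 members passed an adjusted p under 0.05 in 7 of the 10 other settings of scaling, filter and probe choice, in which 11.7% to 63.2% of all genes passed too. The test treats both siRNAs as replicates and takes NC to vary as they do.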

How the data were processed

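Total RNA of HCT116 cells (SMARCA4-KD1, SMARCA4-KD2 and NC, 1 array each) was measured on 1-colour Agilent SurePrint G3 arrays. For each of 62976 spots the deposited files give an intensity that Agilent Feature Extraction 10.7.1.1 had background-subtracted and detrended, with no scaling between arrays. The authors also deposited other columns, 0 or 1 flags of the extraction, and a series-level table in the same unit of intensity. For 57901 probes with 1 spot that table equalled the scanner values within 0.1%, except for 1 probe. Probe positions are in hg19.

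Control spots and spots marked as outliers were left out, repeated spots were averaged on the log2 scale, and the array's 75th percentile over 58201 non-control probes was subtracted (intensities of 237, 228 and 223). Well above background were 46.8%, 47.3% and 45.7% of probes. Values not well above background were raised to the lowest value well above it on that array. A probe was kept when 1 or more arrays showed it well above background (29334 probes), and each of 22620 gene names was read from its brightest probe.

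The difference of each knockdown from NC was read at 1.5-fold without a test. Both were compared with NC by limma 3.58.1 (R 4.3.3) with a trended prior variance, and p-values were adjusted over all genes by Benjamini-Hochberg. Other steps used Python 3.11.15, numpy 2.4.6, pandas 2.3.3, statsmodels 0.14.6 and matplotlib 3.10.9, and the steps were tested on simulated data. Values on every array are given for SMARCA4, for members at least 1.5-fold apart from NC in the same direction in both knockdowns, and for the lowest and highest member of each role by the mean difference. Genes of the further lists are named where 1.5-fold apart in both. Members and lists were chosen with earlier results of these data known. The alternatives were quantile normalization, a percentile over probes well above background, normexp with an offset of 50, a lowess trend, no floor, either a stricter filter (all arrays) or no filter, the mean over probes or the second probe, the series-level table, each knockdown alone, a 2-fold threshold, and for limma no trend, an unadjusted p, and a t-test of ours at 1.5-fold and p under 0.01. The arrays of the PRMT1 knockdown were not used here, and the siRNA sequences, 1 leukocyte marker and 1 gene first placed on the further nucleotide list are not reported here.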

Additional observations from a re-analysis of the deposited data

Results flagged for a closer look

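With the processing described above, CDC6 and MCM10 were the only members whose log2 difference from NC had opposite signs in the knockdowns. Other members joined them in some settings, among them ORC6, RFC2 and RFC5 after quantile normalization, and DBF4 and POLE with the second probe. CDC6, which loads the MCM helicase, had a log2 difference of 0.47 in SMARCA4-KD1 cells and -0.08 in SMARCA4-KD2 cells. MCM10, which helps to activate the helicase, had 0.09 in SMARCA4-KD1 cells and -0.34 in SMARCA4-KD2 cells. With 1 array per knockdown the difference between the knockdowns was not tested.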

How the results depend on the processing

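By the mean of both differences, 14 named genes under 10 alternatives gave 140 values, of which 64 equalled the first value because the filter, floor or probe choice did not touch the gene, and the other 76 kept their sign. These are SMARCA4, members past 1.5-fold in both and extreme members, and some other named genes turned in 1 knockdown, among them RFC2 and RFC5 after quantile normalization, RFC4 with normexp and DBF4 with the second probe. In SMARCA4-KD1 the median of the firing genes turned from -0.05 to 0.04 with the second probe (and was as low as -0.15 with lowess), and that of the replication factor C subunits from -0.05 to 0.01 with normexp. Across the settings the median of the origin recognition complex in SMARCA4-KD2 lay between -0.05 and 0.12, and those of the epithelial markers between -0.15 and 0.09. Members at least 1.5-fold lower were 12 in SMARCA4-KD1 (12.8% of all genes) and 12 in both knockdowns (8.59%) after quantile normalization, and 11 (14%) and 11 (9.27%) with a percentile over probes well above background. At 2-fold the count for both fell to 0 (2.11% of all genes), by the stricter threshold itself. SMARCA4-KD1 then had 1 such member, against 3.64% of all genes, while SMARCA4-KD2 had 0, against 2.6%. Members were thus not past 2-fold lower more often than all genes. With 1 knockdown left out the count for both was 7 without SMARCA4-KD2 (12.3% of all genes) and 13 without SMARCA4-KD1 (9.77%). Only 1 array then had to pass. With the second probe, 2 members (3.77%, against 6.36% of all genes), ORC4 and RPA1, were 1.5-fold higher in both. The median of members in SMARCA4-KD1 was then -0.092. Medians of role groups, over the mean of both differences, moved as follows. Quantile normalization gave -0.245 for firing, -0.28 for the fork, -0.65 for fork protection and chromatin assembly and -0.42 for nucleotide supply. The percentile over probes well above background gave -0.67 for fork protection and chromatin assembly and -0.35 for nucleotide supply, and normexp gave -0.47 for the former. The lowess trend gave -0.39 for licensing, -0.256 for firing, -0.28 for the fork and -0.41 for nucleotide supply. The second probe gave -0.13 for the fork and -0.42 for nucleotide supply, and the mean over probes gave -0.36 for nucleotide supply. At an adjusted p under 0.05 limma called 15 members after quantile normalization, 16 with normexp, 16 with lowess, 17 with the filter on all arrays, 21 with no filter, 14 with no floor and 15 with the series-level table. The shares of all genes called in these settings were 11.7%, 16.3%, 13.7%, 26.5%, 63.2%, 14.9% and 16.5%. It called 20 at an unadjusted p (30.4% of all genes), a t-test with 1.5-fold and an unadjusted p under 0.01 called 1 (1.93%), and with an adjusted p it called 0. With the percentile over probes well above background, the mean over probes, the second probe or no trend, limma called 0. Except where the construction is named, the cause was not tested. NC could not be left out, and limma without either knockdown has no residual degrees of freedom, so neither was run. Signal over background did not limit the members, whose probes were all well above it.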
